A study of Drosophila melanogaster with 4 samples.

Results

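GFP-negative cells of the larval wing disc were compared between the Cdk8-CycC depletion library and the Control library, gene by gene, by the share of cells in which each gene was detected. The discs came from third-instar Drosophila melanogaster larvae, dissociated with trypsin and profiled by 10x Genomics droplet sequencing, with 1 library per genotype. The Cdk8-CycC depletion animals were ap-Gal4>GFP/+; UAS-Cdk8i-cycCi/+, in which the apterous driver expresses GFP together with RNA interference against the kinase Cdk8 and its partner Cyclin C. The Control animals were ap-Gal4>GFP/+, so both genotypes carried 1 copy of the driver and of GFP. The 2 remaining genotypes, ap-Gal4>GFP/+; UAS-Med12i/+ (Med12 depletion) and ap-Gal4>GFP/+; UAS-Cdk8i-cycCi-Med12i/+ (combined depletion), are used here only to place these libraries among others. The discs of a library were pooled, ap-Gal4 acts in dorsal cells, and GFP-negative cells of the same discs should therefore carry the construct without expressing it. The comparison thus asks what differs, away from the depleted cells or between the libraries, in cells that were not themselves depleted, and with 1 library per genotype these cannot be told apart.

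The genes compared were those listed in both of the authors' deposited tables with a GFP-negative share above 0% in both libraries. These were 5303 of the 7451 genes listed in any of the 4 tables. Another 5 genes listed in both tables had a share of 0% in a GFP-negative set, among them GFP itself, and 1491 genes listed only for Cdk8-CycC depletion and 216 listed only for Control had no ratio. A table lists a gene only if it differed between GFP-positive and GFP-negative cells of its own library at the authors' p below 0.01, so the genes compared are a selected subset. The share was read from the column of the set named as higher where that was the GFP-negative set, and from the other column where it was not. For each gene the log2 ratio of the shares, Cdk8-CycC depletion over Control, was centred on its median over all genes, and every log2 value below is such a centred ratio unless stated otherwise. A gene was called higher or lower at a centred ratio of at least 1.5-fold with detection in at least 10% of GFP-negative cells of either library. No test was possible, since each group is 1 library, and neither the cell numbers nor the depth are known, so no interval was computed.

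Cdk8 and Cyclin C form the kinase part of a module that docks reversibly on Mediator, the complex that links transcription factors to RNA polymerase II. The module's other subunits are Med12, encoded by kto, and Med13, encoded by skd. Dorsal and ventral cells of the disc exchange signals such as Wingless and Notch ligands across the compartment boundary, and growth of one compartment is coordinated with that of the other, so cells next to a manipulated compartment can respond without being manipulated.

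The genes targeted by RNA interference were detected about as often in GFP-negative cells of both libraries. CycC (FBgn0004597) was detected in 32.2% of GFP-negative cells with Cdk8-CycC depletion and in 32.4% in Control. In GFP-positive cells the shares were 18.9% under Cdk8-CycC depletion and 43.2% in Control. Cdk8 (FBgn0015618) was detected in 11.5% and 11.0% of GFP-negative cells, and in 9.0% and 18.9% of GFP-positive cells, in the same order of libraries. The centred log2 ratios were -0.16 for CycC and -0.08 for Cdk8 in GFP-negative cells, against -1.43 and -1.31 in GFP-positive cells, and these were the widest gaps between the cell sets among 4625 genes compared in both. The reduction of both transcripts was thus seen in the set that expresses the driver and not in GFP-negative cells. The untargeted kto (FBgn0001324) was detected in 29.1% and 28.6% of GFP-negative cells. The skd gene was not listed for Control, and its GFP-negative share under Cdk8-CycC depletion was 76.4%.

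**Figure D1:**
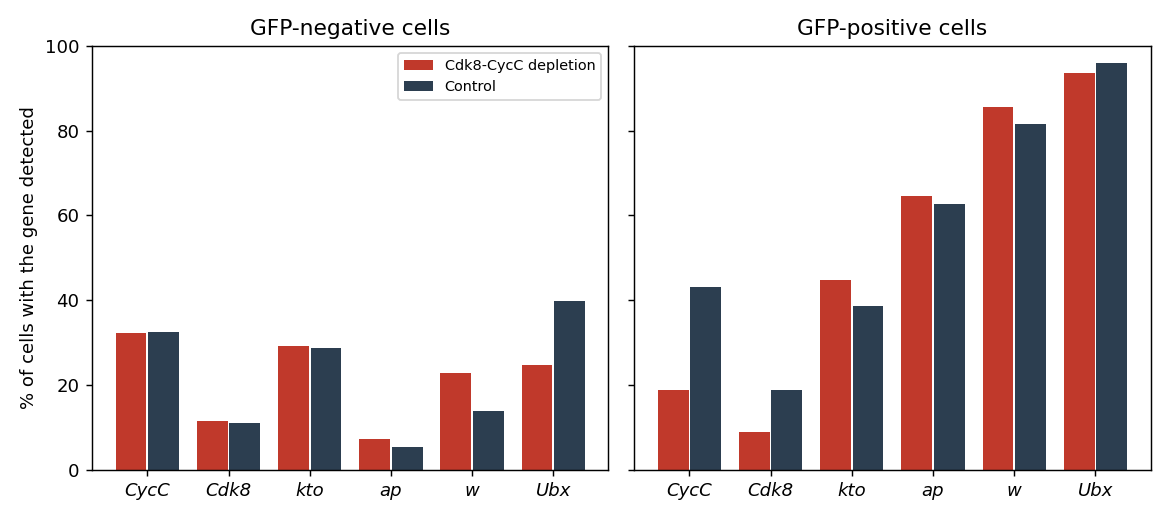
Share of cells with each gene detected, in percent, in GFP-negative (left) and GFP-positive cells (right), for the Cdk8-CycC depletion library (red) and the Control library (dark blue). CycC and Cdk8 have nearly equal bars in GFP-negative cells, at 32.2% and 32.4% and at 11.5% and 11.0%, and lower red bars in GFP-positive cells, while w and Ubx differ between the libraries in GFP-negative cells.

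Dorsal and ventral markers differed between the cell sets in the direction of the labels, with some detection of dorsal transcripts in GFP-negative cells. The dorsal selector gene ap was detected in 7.2% of GFP-negative cells with Cdk8-CycC depletion and in 5.3% in Control, against 64.7% and 62.6% of GFP-positive cells. The ventrally expressed integrin gene if was detected in 38.1% and 40.7% of GFP-negative cells and in 18.3% and 18.8% of GFP-positive cells. Whether these ap reads came from dorsal cells or from free RNA cannot be told apart, and no background share was estimated. The pouch gene nub was detected in 100% of both sets of both libraries, so the tables cover cells in which nub was detected. Of 10 dorsal genes with a ratio, none was called, 4 lay above 0 and 6 below, and the median was -0.08. Among those detected in at least 10% of GFP-negative cells of either library, Dr, a dorsal homeobox gene, had the highest share ratio (log2 0.42). It was found in 10.5% under Cdk8-CycC depletion and 7.1% in Control. The lowest was Ser, with 33.5% and 40.6% (log2 -0.43). All 5 ventral genes with a ratio lay between -0.24 (if) and -0.06 (Gasp).

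Shares in GFP-negative cells were generally somewhat higher under Cdk8-CycC depletion. The median uncentred ratio was 1.11-fold (log2 0.15), and among the 4626 genes that met the share minimum the median share was 30.4% under Cdk8-CycC depletion and 27.4% in Control. The molecules found per cell are unknown, and the part of sequencing depth in this shift was not tested. Differences below are relative to it, and a list median between -0.15 and 0 therefore stands for shares that were, uncentred, slightly higher under Cdk8-CycC depletion. Around that shift the libraries were close. Of the 4626 genes, 94.9% lay within 1.3-fold of the median ratio, and the central 95% lay between log2 -0.36 and 0.40. Only 46 genes were called higher (0.994% of those assessed) and 15 lower (0.324%), or 98 and 9 without centring and 52 and 28 on the scale of -ln(1 - share). At the main setting 1.32% were called in either direction, so a short gene list may hold no called gene without standing apart. In GFP-positive cells of the same libraries, 72 of 5072 genes were called higher (1.42%) and 17 lower (0.335%). The 46 higher genes were mostly found in few cells, with a median share of 16% under Cdk8-CycC depletion and 8.15% in Control. The 15 lower genes had median shares of 12.6% and 21.3%. Just inside the limits lay cu (log2 0.588) and msl-2 (-0.598), and just outside Vps16B (0.580) and CG5273 (-0.569).

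**Figure D2:**
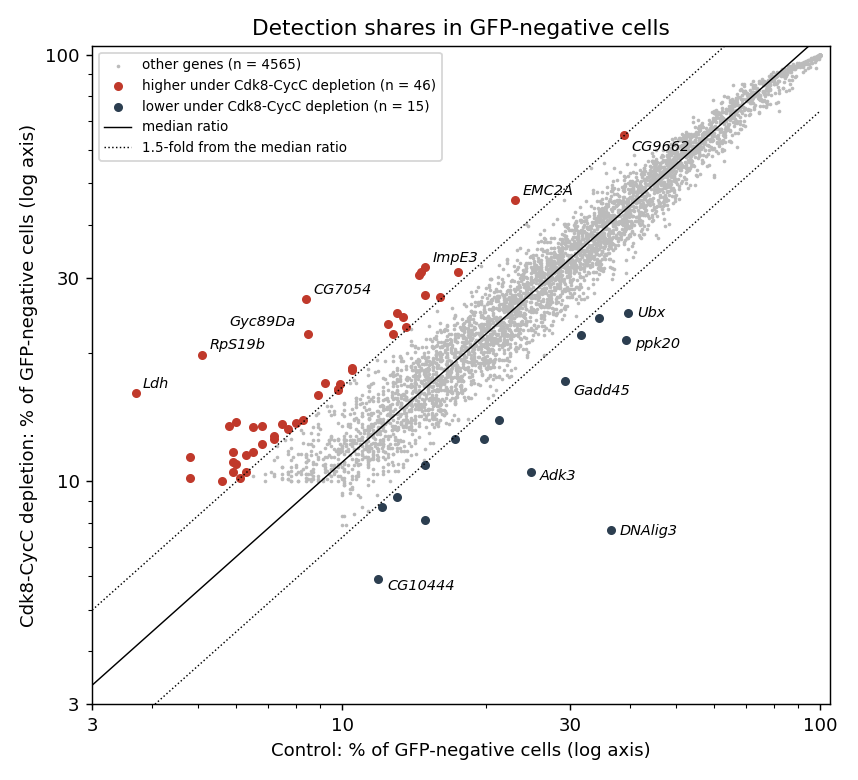
Each point is 1 of 4626 genes, placed by its share of GFP-negative cells in Control (x, log axis, %) and under Cdk8-CycC depletion (y, log axis, %); the solid line is the median ratio and the dotted lines are 1.5-fold from it. The 46 called higher (red) lie above the upper dotted line, led by Ldh, and the 15 called lower (dark blue) lie below the lower one, led by DNAlig3.

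The highest ratio of all genes assessed was that of Ldh. Ldh (FBgn0001258), which encodes the lactate dehydrogenase that converts pyruvate to lactate, was detected in 16.1% of GFP-negative cells with Cdk8-CycC depletion, 24.5% under Med12 depletion, 17.2% under the combined depletion and 3.7% in Control, a centred ratio of 3.93-fold between the first and the last. Control thus stood below all 3 depletion libraries in uncentred shares. Of the 5 glycolytic genes with a ratio, the other 4 (Pgi, Gapdh1, Eno and PyK) lay between -0.12 and -0.08. They were found in 53.5% to 90.6% of GFP-negative cells in Control, so a rise as large as that of Ldh was impossible. Uncentred, each was slightly higher under Cdk8-CycC depletion, for example Pgi with 54.4% and 53.5%. Whether they shared the difference of Ldh could therefore not be assessed. Dci (FBgn0035169), an isomerase of fatty acid oxidation, was detected in 30.4% of GFP-negative cells with Cdk8-CycC depletion, 44.7% and 39.3% under Med12 and combined depletion, and 14.5% in Control. At the other end, Adk3 (FBgn0026602), which encodes an adenylate kinase, was detected in 10.5% of cells under Cdk8-CycC depletion, 24.6% under Med12 depletion, 14.2% under the combined depletion and 24.8% in Control (log2 -1.39). In uncentred shares Adk3 was thus alike in Control and Med12 depletion, and the libraries that carry the Cdk8-CycC construct were lower. With each library centred on its own median, however, Control had the highest Adk3 share of the 4, above Med12 depletion too.

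RpS19b (FBgn0039129), a copy of the ribosomal protein gene RpS19a, was detected in 19.8% of GFP-negative cells with Cdk8-CycC depletion, 23.4% and 19.5% under Med12 and combined depletion, and 5.1% in Control (log2 1.81). Reads of the pair of RpS19 genes may be hard to separate, so this value is uncertain. EMC2A (FBgn0038462), a subunit of the endoplasmic reticulum membrane complex, was found in 45.7% of cells under Cdk8-CycC depletion and 23% in Control, and Med12 and combined depletion had 64.8% and 52.9%. Again Control was the lowest of the 4 libraries in uncentred shares. The mitochondrial translation release factor gene mRF1 (11.7% and 5.9%) and the Integrator subunit gene IntS12 (23% and 13.6%) were also called higher under Cdk8-CycC depletion relative to Control.

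Most ecdysone response genes with a ratio lay above the median of all genes, and 2 of them were called higher. Ecdysone is the steroid hormone whose pulses time moulting and the start of metamorphosis. ImpE3 (FBgn0001255), an ecdysone-inducible gene of imaginal discs, was detected in 31.8% of GFP-negative cells with Cdk8-CycC depletion, 59.1% under Med12 depletion, 27.2% under the combined depletion and 14.9% in Control (log2 0.95). ImpE2 was detected in 85.2% and 65.7% of cells (log2 0.23) and the nuclear receptor gene Eip78C in 32.1% and 21.3% (log2 0.44), each under Cdk8-CycC depletion and in Control. Of 10 ecdysone response genes with a ratio, out of 25 on the list, 8 lay above 0 and 2 passed the size rule, ImpE3 and Ldh, which entered the list under its older name ImpL3, where 0.994% of all genes assessed were called higher. The 15 list genes without a ratio could not be assessed. The median of the 10 with a ratio was 0.22, against 0 for all genes by construction, and 0.06 in GFP-positive cells. It stayed above 0 on every scale and centring tried. Of the 10, 8 met the share minimum. ImpL2 (6.2% and 3.7%) and E23 (4% and 3.1%), both above 0, did not. The remaining 2 members below 0 were br, detected in 99.2% and 99.3% of cells and so unable to vary, and dre4 (log2 -0.13). Sox14 (FBgn0005612), a transcription factor gene that was not on the list and was chosen after its value was seen, was called higher, with 24.8% under Cdk8-CycC depletion and 13.0% in Control, and with 26.6% and 23.9% under Med12 and combined depletion.

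Further genes called higher had varied known roles and were not part of a list. Gyc89Da (FBgn0038435), which encodes an oxygen-sensitive guanylyl cyclase, was detected in 22.2% of GFP-negative cells with Cdk8-CycC depletion, 18.2% and 20.7% under Med12 and combined depletion, and 8.5% in Control (log2 1.24). GNBP2, of the family of Gram-negative bacteria-binding proteins, was found in 13.8% under Cdk8-CycC depletion and 6.0% in Control. The serine protease gene ea, known from activation of Toll signalling in the embryo, was found in 27.3% and 14.9% of cells, and Fadd, an adaptor of the Imd immune pathway, in 12.6% and 7.2%. Arc2, related to the Gag proteins of retrotransposons, was found in 13.5% and 5.8%, and pst, known for natural variation in virus resistance, in 22.1% and 12.8%. For each of these 6 genes the uncentred Control share was the lowest of the 4 libraries. Uncentred, Control was also lowest for genes that were not called, such as Mer, with 22.8% in Control and 27.2% under Cdk8-CycC depletion. Med12 and combined depletion had 40.3% and 37.7% for Mer. How often this held over all genes was not counted. The others among the 15 highest were CG7054 (log2 1.52), l(2)34Fc (1.1), the sulfotransferase gene St3 (0.94), CG4291 (0.93), CG14511 (0.90) and CG17549 (0.84).

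The lowest ratio of all genes assessed was that of DNAlig3. DNAlig3 (FBgn0286075), which encodes DNA ligase 3, was detected in 7.7% of GFP-negative cells with Cdk8-CycC depletion, 12% under Med12 depletion, 11.3% under the combined depletion and 36.5% in Control, which is a centred ratio of 0.190. Control stood far above all 3 depletion libraries. Gadd45 (FBgn0033153), induced by DNA damage and stress, was detected in 17.2% under Cdk8-CycC depletion, 37.8% and 25.8% under Med12 and combined depletion, and 29.2% in Control (log2 -0.91). Gadd45 and Adk3 are immediate neighbours in the Ensembl annotation, with no gene between them, and they were the only pair of called genes within 5 gene positions of each other. The uncentred shares of both were lowest under Cdk8-CycC depletion.

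The Hox gene Ubx (FBgn0003944), which specifies the haltere and is known as a marker of the peripodial cells that overlie the disc, was detected in 24.8% of GFP-negative cells with Cdk8-CycC depletion, 35.1% under Med12 depletion, 18.6% under the combined depletion and 39.7% in Control (log2 -0.83). In GFP-positive cells Ubx was found in 93.5% and 96.0% of cells, for Cdk8-CycC depletion and Control, a share far above that of GFP-negative cells. Ubx is also on the list of driver and transgene marks, where w likewise had a far higher share in GFP-positive than in GFP-negative cells. Among 8 peripodial genes with a ratio, Ubx was the single one called, and Antp (40.4% and 41.7%) and Mmp1 (23.9% and 22.6%) lay at -0.19 and -0.07. The transcriptional repressor gene dpn, known from neural precursors, was found in 24.2% under Cdk8-CycC depletion and 34.5% in Control (log2 -0.66), with 31.6% and 34.3% under Med12 and combined depletion. The dosage compensation gene msl-2 was found in 12.6% and 17.2% (log2 -0.60), and of 7 genes of that list with a ratio it was the only one called. The sensory channel gene ppk20 (21.4% and 39.2%), the retinoid-binding protein gene pinta (12.6% and 19.8%) and mt:ND4L (8.1% and 14.9%), a mitochondrially encoded subunit of respiratory complex I whose annotated sequence overlaps mt:ND4 on the same strand, were lower too. The others among the 15 were CG10444 (log2 -1.16), CG2694 (-0.76), CG31549 (-0.67), CG15706 (-0.65), CG6962 (-0.62) and CG31678 (-0.60).

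**Figure D3:**
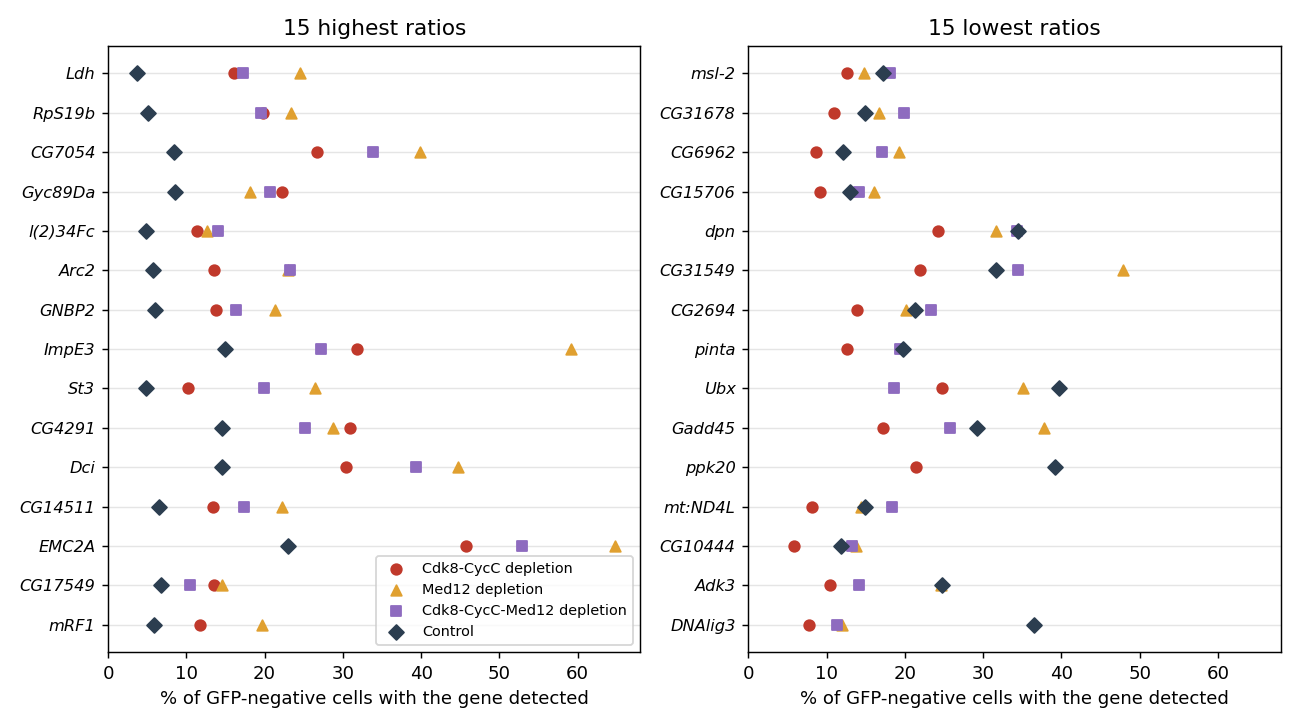
Share of GFP-negative cells with the gene detected (x, %) in the libraries of Cdk8-CycC depletion (circles), Med12 depletion (triangles), combined depletion (squares) and Control (diamonds), for the 15 highest (left) and 15 lowest (right) centred ratios of Cdk8-CycC depletion over Control. On the left the Control diamond is the leftmost mark of every gene, and on the right Cdk8-CycC depletion is the leftmost for every gene except Ubx.

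Placed among all 4 libraries, the Control library stood at one end for nearly every called gene. For this, the log2 shares of each library were centred on that library's median over 3766 genes listed in all 4 tables. Of 39 higher genes listed in all 4, the Control share was the lowest of the 4 in 38 and the Cdk8-CycC share the highest in 16. Of 13 lower genes, the Control share was the highest in all 13 and the Cdk8-CycC share the lowest in 8. These places are of centred shares. Uncentred, Control was the highest only for DNAlig3, Adk3, Ubx and dpn among the 13. Gadd45, for example, had 29.2% in Control and 37.8% under Med12 depletion. Over all 3766 genes Control was lowest in 26.0% and highest in 29.4%, and Cdk8-CycC depletion was highest in 28.9% and lowest in 15.3%. Genes called between these libraries must have one of them toward an end, so the place is a description. The exception among the higher genes was CG17549, whose centred share was marginally lower under the combined depletion than in Control, with uncentred shares of 13.5% under Cdk8-CycC depletion, 14.6% and 10.5% under Med12 and combined depletion, and 6.8% in Control.

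The same genes were then read in GFP-positive cells, which share the libraries and therefore any difference between them. The 46 higher genes had centred log2 ratios between 0.59 and 1.97 in GFP-negative cells (median 0.71) and between 0.12 and 2.02 in GFP-positive cells (median 0.61). The 15 lower genes lay between -2.39 and -0.60 (median -0.80) in GFP-negative cells and between -2.12 and -0.07 (median -0.49) in GFP-positive cells. Ldh was found in 24.8% of GFP-positive cells under Cdk8-CycC depletion and 7.0% in Control, RpS19b in 40.7% and 8.5%, and DNAlig3 in 12.3% and 45.2%. The leading differences of GFP-negative cells were thus present in both cell sets of the library and not in the undepleted set alone. St3 was further apart in GFP-positive cells (36.4% and 10.0%, log2 1.63) than in GFP-negative cells (10.2% and 4.8%, log2 0.94). The widest gap in the other direction, after the targeted genes, was that of w, the eye colour gene that also marks transgenes. It was found in 22.8% of GFP-negative cells with Cdk8-CycC depletion and 13.9% in Control (log2 0.57, just under the size rule), and in 85.5% and 81.6% of GFP-positive cells (-0.17). Uncentred, w was thus higher under Cdk8-CycC depletion in both sets, and its GFP-positive share had little room to rise. Among lower genes, CG10444 was found in 5.9% and 11.9% of GFP-negative cells but in 16% and 17.6% of GFP-positive cells, and CG31549 in 22% and 31.6% against 50.9% and 45.2%.

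Cell cycle genes did not show in GFP-negative cells the ratios found in GFP-positive cells. Of 41 G1-S and replication genes with a ratio, none was called in GFP-negative cells, and 9 lay above 0 and 32 below, with a median of -0.07. In GFP-positive cells 35 of the 41 lay above 0, with a median of 0.14. The ratio was lower in GFP-negative than in GFP-positive cells for 35 of the 41, against 2604 of all 5303 genes. Cdc6, which loads the replicative helicase, was found in 30.6% and 23.3% of GFP-negative cells (log2 0.24), under Cdk8-CycC depletion and in Control, and in 54.6% and 33.4% of GFP-positive cells (0.47). The primase subunit Prim1 was found in 14.2% and 15% of GFP-negative cells (log2 -0.23) and in 36.0% and 22.6% of GFP-positive cells (0.43). The helicase subunit Mcm7 was found in 42.6% and 47.0% of GFP-negative cells and in 71.3% and 58.2% of GFP-positive cells. Raw shares of these genes in GFP-negative cells were thus close between libraries, and the negative median is relative to the shift of all genes. Without centring it was 0.08.

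Of 40 G2-M and mitosis genes with a ratio, 33 lay below 0 in GFP-negative cells (median -0.12, or 0.03 without centring) and none was called. In GFP-positive cells 14 of the 40 lay above 0, with a median of -0.03, unlike the replication genes, most of which lay above 0 there. The ratio was lower in GFP-negative than in GFP-positive cells for 32 of the 40. The centromeric histone gene cid, among the genes with the widest gap between the cell sets, was found in 10.4% and 12.2% of GFP-negative cells and in 27.9% and 18.9% of GFP-positive cells, under Cdk8-CycC depletion and in Control. The mitotic phosphatase gene stg was found in 67.1% and 68.2% of GFP-negative cells (log2 -0.17). The highest member was the kinetochore gene Mis12, with 28.1% and 20.4% (0.31).

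All 9 lipid synthesis genes with a ratio lay below 0 in GFP-negative cells, with a median of -0.19, or -0.04 without centring. That median is the value of AcCoAS, under the share minimum at 3.3% under Cdk8-CycC depletion and 3.4% in Control. Uncentred, ATPCL, Gpat4, Lpin and Pect had slightly higher shares under Cdk8-CycC depletion, and the other list genes with a ratio had lower ones. The fatty acid synthase gene FASN1 was lowest, with 15.9% under Cdk8-CycC depletion and 20.7% in Control (log2 -0.53), followed by ACC, the enzyme that makes malonyl-CoA, with 14.6% and 16% (-0.28). None was called. In GFP-positive cells the list median was -0.02. These genes are long, with a median exonic length of 4339 bases against 2002.5 for all genes assessed, and with centring within groups of equal length the median was -0.11.

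Core Mediator genes lay slightly above the median of all genes, 16 of 24 above 0, with a list median of 0.08 and none called. These genes are short, with a median exonic length of 1089 bases against 2002.5 for all genes assessed. With centring within groups of equal length the list median was 0.03. MED20 was highest, with a log2 of 0.21, and MED24 lowest, with -0.31. Among transcription kinases outside the module, Cdk7 of TFIIH was found in 30.6% of GFP-negative cells with Cdk8-CycC depletion and 23.9% in Control (log2 0.21), and Cdk9 of P-TEFb in 18.8% and 15% (0.18). Together with Cdk8, CycC and kto, 8 genes of this list had a ratio, of which none was called and 5 lay below 0.

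No gene was called on the lists of signalling pathways that could link the compartments, where 1.32% of all genes assessed were called. At that share lists of this size would hold few calls or none, so the absence is not a result about the pathways. In the Notch list, with 18 genes, 8 lay above 0 and the median was -0.02. Its ends were E(spl)mgamma-HLH, a direct Notch target found in 11.6% of GFP-negative cells with Cdk8-CycC depletion and 7.7% in Control (log2 0.44), and neur, a ubiquitin ligase that activates Notch ligands, in 10.6% and 13.1% (-0.45). The ligand gene Ser was found in 33.5% and 40.6% (-0.43). In the Wingless list, with 14 genes and a median of -0.05, the ends were por, needed to lipid-modify Wnt ligands (0.27), and Wnt5 (-0.29), and wg itself lay at 0.09. The Dpp list (15 genes, median -0.10), the EGFR list (16, -0.05), the JAK-STAT list (8, -0.08), the Hippo list (14, -0.06) and the TOR and insulin list (13, -0.06) had no called member. Their medians lay between 0.00 and 0.04 with centring within groups of equal length, so their small negative values did not stand under that choice. The posterior and Hedgehog list (14 genes, median -0.16) moved to -0.01 in the same way. The lowest members of JAK-STAT and TOR signalling were the kinase genes hop, with 20.1% and 24.5% (log2 -0.43), and Tor, with 19.6% and 24.4% (-0.46).

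Genes of cell death, cell competition and wounding were detected at like shares in GFP-negative cells of both libraries. Of 9 death and competition genes with a ratio, none was called, and the pro-apoptotic genes rpr and hid were found in 41.0% and 38.9% and in 67.9% and 63.5% of GFP-negative cells, for Cdk8-CycC depletion and Control. Among 14 immediate early and stress genes Gadd45 alone was called. The JNK target puc was found in 32.1% and 29.2%. Ilp8, a hormone gene by which damaged discs delay metamorphosis, was found in 0.9% and 0.6% of GFP-negative cells, too few to assess, and in 8.7% and 1.8% of GFP-positive cells.

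Other lists were limited by saturation or by length. All 39 ribosomal protein genes with a ratio were found in at least 95% of GFP-negative cells of both libraries. So were 5 of 8 mitochondrially encoded, 4 of 7 heat shock and 3 of 4 histone genes. The shares of these saturated genes could hardly differ and say nothing about expression. The remaining mt:ND5 (93% and 97.9%), mt:ATPase8 (16.4% and 21%) and mt:ND4L lay at log2 -0.22, -0.51 and -1.03. At 97.9% in Control, mt:ND5 was too near saturation to lie above 0. In GFP-positive cells it was saturated in both libraries (95.4% and 98.4%). There mt:ATPase8 and mt:ND4L also lay below 0 (-0.63 and -0.90). The proteasome list (29 genes, median 0.00), the nuclear respiratory chain list (37, -0.01), the endoplasmic reticulum folding list (22, -0.06), the glutathione list (9, -0.03), the ribosome biogenesis list (16, -0.04), the epithelial junction list (17, -0.11) and the cuticle list (19, -0.08) had no called member. Median Control shares were 75.8% for the proteasome, 71.8% for the respiratory chain and 70.05% for the endoplasmic reticulum folding list. From such shares no gene could rise far enough to be called higher, so for these lists the absence of higher calls is not a result. The endoplasmic reticulum gene wbl, needed for dorsoventral patterning of the embryo, was the highest of its list (log2 0.42), and the cuticle gene Cpr12A of its own (0.42).

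Markers of disc regions and of other cell types were also without called genes apart from Ubx, where 1.32% of all genes assessed were called. Few of them met the share minimum, such as 4 notum, 4 myoblast and 5 peripodial genes. The absence of calls therefore says little about these regions and cell types. The wing pouch list had 9 genes with a ratio (median -0.11), the hinge list 11 (-0.07) and the notum list 11 (0.00), with values between -0.20 and 0.42 for members that met the share minimum. The pouch, hinge, notum, peripodial and myoblast medians were above 0 with centring within groups of equal length. Of 15 hemocyte genes 1 had a ratio, crq (22.6% and 24.5%), of 17 myoblast genes 6 (median -0.09), of 11 tracheal genes 7 (-0.08) and of 24 sensory and neural genes 8 (0.15, or -0.21 over genes listed in all 4 tables). Shares were also summed over list members, under Cdk8-CycC depletion and in Control. They were 283.3% and 276.3% for the tracheal list, 183.9% and 175.7% for the myoblast list, and 176.9% and 187.4% for the peripodial list. The peripodial sums include Ubx, at 24.8% and 39.7%, a gap wider than that between the sums. Ubx is also on the list of driver and transgene marks, so the lower peripodial sum cannot be read as fewer peripodial cells. The sole fat body gene with a ratio was the storage protein gene Lsp1gamma, under the share minimum at 5.9% under Cdk8-CycC depletion and 1.6% in Control, with 12.9% and 3.2% in GFP-positive cells. Fat body does not belong to the disc epithelium, and the part of RNA from other tissue in the results was not tested.

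**Figure D4:**
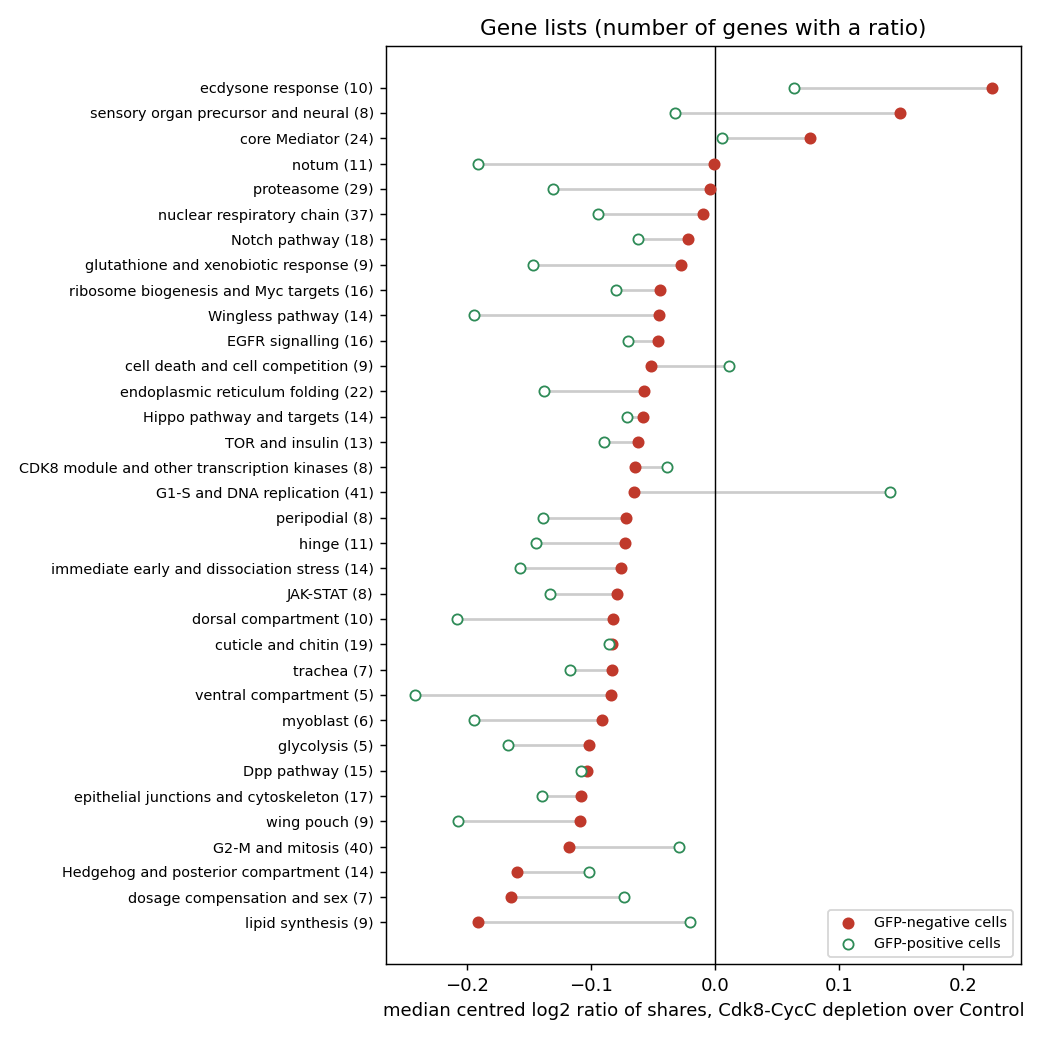
Median centred log2 ratio of detection shares, Cdk8-CycC depletion over Control (x), for each gene list with at least 5 genes with a ratio and at most a minority of them saturated, in GFP-negative (filled) and GFP-positive cells (open). The ecdysone list is furthest right in GFP-negative cells (0.22) and the lipid synthesis list furthest left (-0.19), and the replication list lies at -0.07 in GFP-negative and 0.14 in GFP-positive cells.

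The ratio varied with gene length across all genes. Exonic length, the number of bases covered by any exon of a gene in the Ensembl annotation, was known for 4612 of the 4626 genes. In the shortest of 5 equal groups (162 to 1148 bases) the median centred log2 ratio was 0.08, and in the longest (3688 to 69810 bases) it was -0.14. Spearman's rank correlation with length across genes, which share both libraries and are not replicates, was -0.47 in GFP-negative and -0.32 in GFP-positive cells of the same pair. For GFP-negative cells of the remaining libraries over the same Control, this correlation was -0.35 for Med12 depletion (3916 genes) and -0.01 for the combined depletion (4243 genes). The 46 higher genes had a median exonic length of 1315 bases and the 15 lower genes 2492. Centred within 10 groups of equal length, 44 genes were higher and 13 lower, of which 38 and 12 were among those called above, and Ldh lay at log2 1.94, RpS19b at 1.72 and DNAlig3 at -2.34. Of the 46 higher genes, 32 were shorter than the median of all genes assessed. The part of length in these differences was not tested.

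**Figure D5:**
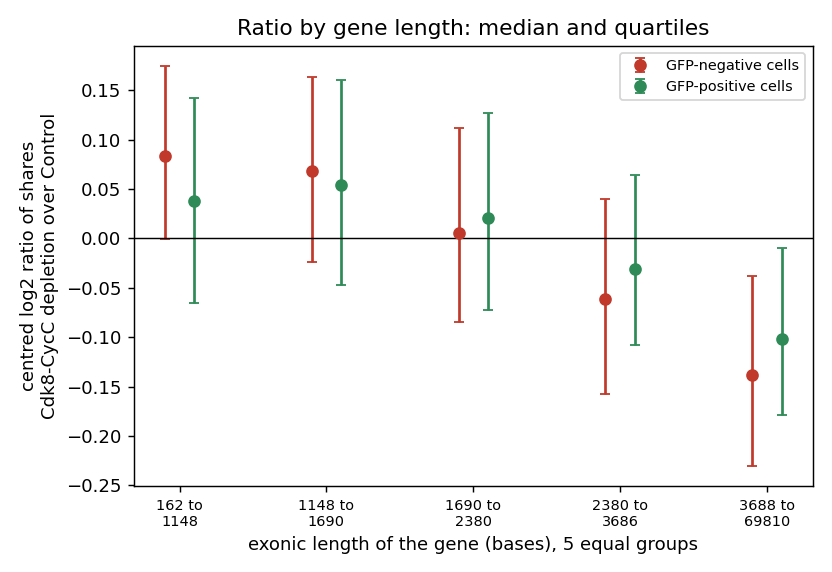
Centred log2 ratio of detection shares, Cdk8-CycC depletion over Control, in 5 equal groups of genes by exonic length in bases (x); points are medians and bars span the quartiles, for GFP-negative (red) and GFP-positive cells (green). The GFP-negative median is 0.08 in the shortest group and -0.14 in the longest.

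The share of genes called differed in value between chromosomes, without a test. Of 2053 genes assessed on chromosome 3, 29 were called higher and 6 lower (1.70%), against 13 and 7 of 1739 on chromosome 2 (1.15%) and 4 and 1 of 789 on the X (0.634%). Chromosome 3 held 63.0% of the higher genes and 44.4% of all genes assessed. The 24 called genes whose exons overlap another annotated gene include DNAlig3, which overlaps Sol1 on the opposite strand, and Gyc89Da, St3, Sox14, Ubx and dpn. Whether the counting used strand is unknown, so reads of such pairs may not be separated.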

How the data were processed

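Cells from larval wing discs were profiled by droplet-based sequencing, with 1 library per genotype and pooled discs. The submitters' processing notes name Cell Ranger 3.0.2 and Seurat. Genome build, cell filters and doublet treatment were not given in the sources used here, and a droplet with cells of both sets would count as GFP-positive. The authors deposited, for each library, a table comparing GFP-positive with GFP-negative cells. For each gene and cell set, the authors deposited a detection fraction, converted here to a percentage. The deposited natural log folds were not used. The deposited p-values, all below 0.01, treat cells as replicates and served only to say which genes are listed.

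Shares of GFP-negative cells were taken as described above. As a check, genes whose higher set differed between the libraries gave median uncentred log2 ratios of 0.23 and 0.08 by this reading, against 0.75 and -0.37 if the second column were always GFP-negative. Depth and cell numbers are unknown, so no interval was computed. Computations used Python 3.11.15 and pandas 2.3.3 and were tested on simulated data. Exonic lengths, chromosomes and neighbours came from Ensembl release 115, and symbols from the tables, with older symbols looked up in reference tables. The genes, lists and size rule were chosen with earlier results of these data known. Genes named are the 15 highest and 15 lowest ratios, the targeted and driver genes, list members past the size rule, the ends of each list, and further list members and genes chosen after their values were seen. Alternatives changed the centring, scale, share minimum, size and genes. Exonic length was added after seeing the data.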

Additional observations from a re-analysis of the deposited data

Results flagged for a closer look

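The eye colour gene w lay on opposite sides of the median in the cell sets of the same pair of libraries, at a centred log2 ratio of 0.57 in GFP-negative cells (22.8% under Cdk8-CycC depletion and 13.9% in Control) and -0.17 in GFP-positive cells (85.5% and 81.6%). Uncentred, the share of w was higher under Cdk8-CycC depletion in both sets, so the opposite sides exist only after centring. From 81.6% in Control, the GFP-positive share also had little room to rise. With 1 library each, the difference between the cell sets was not tested.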

How the results depend on the processing

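No paired analysis was possible because each genotype has 1 library, and none could be left out. The main counts were 46 higher and 15 lower genes. Without centring they were 98 and 9, at 1.3-fold 140 and 96, at 2-fold 7 and 5, without a share minimum 115 and 48, at a minimum of 20% 15 and 8, and on the odds scale 228 and 89. On the scale of -ln(1 - share), 52 were higher and 28 lower. Centring within groups of equal mean share (42 and 16) or equal length (44 and 13), and genes in all 4 tables (39 and 13), stayed within 1.5 times. No called gene changed sign under any of these alternatives. Of 39 list medians, 31 changed sign without centring, 13 with centring by length and 10 on the odds scale. Unknown depth and 1 library per genotype limit every value.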
